A study of Mus musculus with 12 samples.

Results

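The interleukin 12 family is a set of secreted cytokines, each built from 2 different subunits, and 5 genes for those subunits were followed: Il12a, Il23a and Il27, which encode alpha subunits, and Il12b and Ebi3, which encode beta subunits. They were chosen by name, and 4 of the 5 have a probeset among the 18194 genes that could be named on the array. No probeset carries the symbol or gene identifier of Il27, so that gene is not analysed here. The measurements are 12 Affymetrix expression arrays of mouse macrophages, 1 array for each combination of 3 genotypes and 4 times. The tested genotypes were IRAK2 knockout (IRAK2 KO) and the combined IRAK1/IRAK2 knockout, called the double knockout here (labelled IRAK1/IRAK2 KO), and the control was wild type. All cells were peritoneal macrophages recruited by thioglycollate injection. Unstimulated cells stood for 0 h, and the others received MALP-2 at 100 ng/ml for 2, 4 or 8 h. The labels give no strain, age or number of mice for any array, and they do not describe how the alleles were made.

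MALP-2 is a bacterial-type lipopeptide sensed by the receptor pair TLR2 and TLR6. The signal passes through the adaptor MyD88 to the kinases IRAK4, IRAK1 and IRAK2 and on to NF-kB and MAP kinases. The alpha subunits p35 (Il12a), p19 (Il23a) and p28 (Il27) are shaped like a helical cytokine, and the beta subunits p40 (Il12b) and EBI3 (Ebi3) resemble a soluble cytokine receptor. IL-12 joins p35 to p40 and drives interferon gamma production by NK and T cells, and IL-23 joins p19 to p40 and sustains IL-17 producing T cells. IL-27 joins p28 to EBI3, and IL-35 joins p35 to EBI3. The p40 gene of macrophages is a classic target of Toll-like receptor signalling and depends on the NF-kB subunit c-Rel and on C/EBP proteins, while p35 is made in smaller amounts and limits how much IL-12 can form.

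RefSeq promoter sequences on the build GRCm38.p6 were matched for 3 of the 5 genes (Il12a, Il12b and Ebi3), and the 250 bases before each gene's start are shown because the results turn on these genes. The motifs GGGAAT (part of the type of site c-Rel binds), TTGCAA (the core of a C/EBP site), GGGNNNNNCC (an outline of an NF-kB site) and TGANTCA (AP-1) were searched on both strands. The first 2 were chosen with these promoters in view. Capitals mark the matches, and all 3 genes lie on the plus strand, so the sequences run 5′ to 3′ towards the gene. Il12b lies at chr11:44399813-44400062, Il12a at chr3:68690394-68690643 for the first of its 2 listed starts, and Ebi3 at chr17:55952373-55952622.
Il12b: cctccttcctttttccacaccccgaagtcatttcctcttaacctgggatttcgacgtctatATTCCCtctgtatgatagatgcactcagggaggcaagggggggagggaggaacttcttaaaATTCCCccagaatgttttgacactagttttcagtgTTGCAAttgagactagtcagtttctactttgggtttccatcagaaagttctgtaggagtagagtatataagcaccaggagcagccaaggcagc
Il12a: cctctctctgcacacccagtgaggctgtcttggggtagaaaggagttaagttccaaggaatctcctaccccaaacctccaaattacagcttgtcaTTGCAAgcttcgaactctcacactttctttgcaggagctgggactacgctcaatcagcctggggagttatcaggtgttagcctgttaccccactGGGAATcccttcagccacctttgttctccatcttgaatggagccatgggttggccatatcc
Ebi3: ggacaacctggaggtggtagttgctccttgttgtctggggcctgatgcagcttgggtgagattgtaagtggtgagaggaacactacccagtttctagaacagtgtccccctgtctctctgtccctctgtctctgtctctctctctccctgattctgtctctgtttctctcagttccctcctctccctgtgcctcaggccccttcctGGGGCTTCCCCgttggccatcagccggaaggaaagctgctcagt
Il12b holds GGGAAT on the minus strand, read here as ATTCCC, at positions -189 to -184 and -128 to -123 from the start, and TTGCAA at -93 to -88. Il12a holds TTGCAA at -155 to -150 and GGGAAT at -61 to -56. The second Il12a start, not printed, holds neither and has overlapping GGGNNNNNCC matches at -113 to -104 and -112 to -103. Ebi3 holds neither as well, and has overlapping GGGNNNNNCC matches at -44 to -35 and -43 to -34. No TGANTCA stands in the 3 windows printed. Of 32851 promoters of this length, 11.4% hold GGGAAT, 5.34% hold TTGCAA, 0.691% hold both, 45.8% hold GGGNNNNNCC and 6.75% hold TGANTCA. A match describes the letters of the window, not a bound site.

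The array labelled double knockout at 0 h stood apart from the rest. It correlated with the other 11 arrays at 0.764 to 0.804 over all probesets, while the lowest correlation among those 11 was 0.954, so it was left out of the main fits and its values are given only as read. Its Irak1 probeset read 10.84 log2, the highest of the 12 arrays, where the others read 8.11 to 8.59. On this probeset the stimulated double-knockout arrays read 8.11 to 8.31 and the wild-type arrays 8.46 to 8.59. Whether the label of the array that stood apart is right cannot be read from it. Its Irak2 probeset read 3.53, the lowest of the 12. The remaining 3 double-knockout arrays had larger 5′ to 3′ deficits, a sign of RNA or labelling quality, than the other 8 arrays: the 5′ minus 3′ difference of Gapdh was -5.90 to -4.36 log2 in the double knockout, against -3.84 to -3.42 log2 in the other 8. The Irak2 probeset differed by -1.29 log2 in IRAK2 KO and by -1.28 log2 in the double knockout from wild type, on average over the stimulated times. The 4 Irak1 probesets differed by -1.22, -0.66, -0.25 and -0.24 between double knockout and wild type. The labels do not say where these probesets lie relative to the deleted parts, so they do not check the deletions. All 7 macrophage markers averaged above the floor of 3.83 log2, which is the median of all values in the 11 arrays and was used as the limit of measurable signal, while Itgam read 3.82 on the double-knockout 4 h array. Of 7 dendritic cell markers, 6 have a probeset and Itgax and Zbtb46 averaged above the floor, while Flt3, Xcr1, Ccr7 and Cd209a stayed below it in every one of the 11 arrays.

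In IRAK2 KO and wild-type cells the subunit genes followed 3 courses over time: Il12b was highest at 2 h and then declined, Ebi3 was already present at 0 h and climbed to 8 h, and Il12a climbed to 8 h in wild type but declined after 2 h in IRAK2 KO. Il23a passed the floor at 2 h alone. In the double knockout, Il12a and Il12b stayed close to the floor after MALP-2, and Ebi3 stayed near the level of unstimulated wild-type and IRAK2 KO cells. All values below are RMA log2 values, in the order 0, 2, 4 and 8 h. Each is from 1 array, so no spread between mice can be given. The double-knockout values at 0 h come from the array that stood apart. In RNA from a whole population, fewer cells making a transcript and less transcript per cell cannot be told apart.

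**Figure D1:**
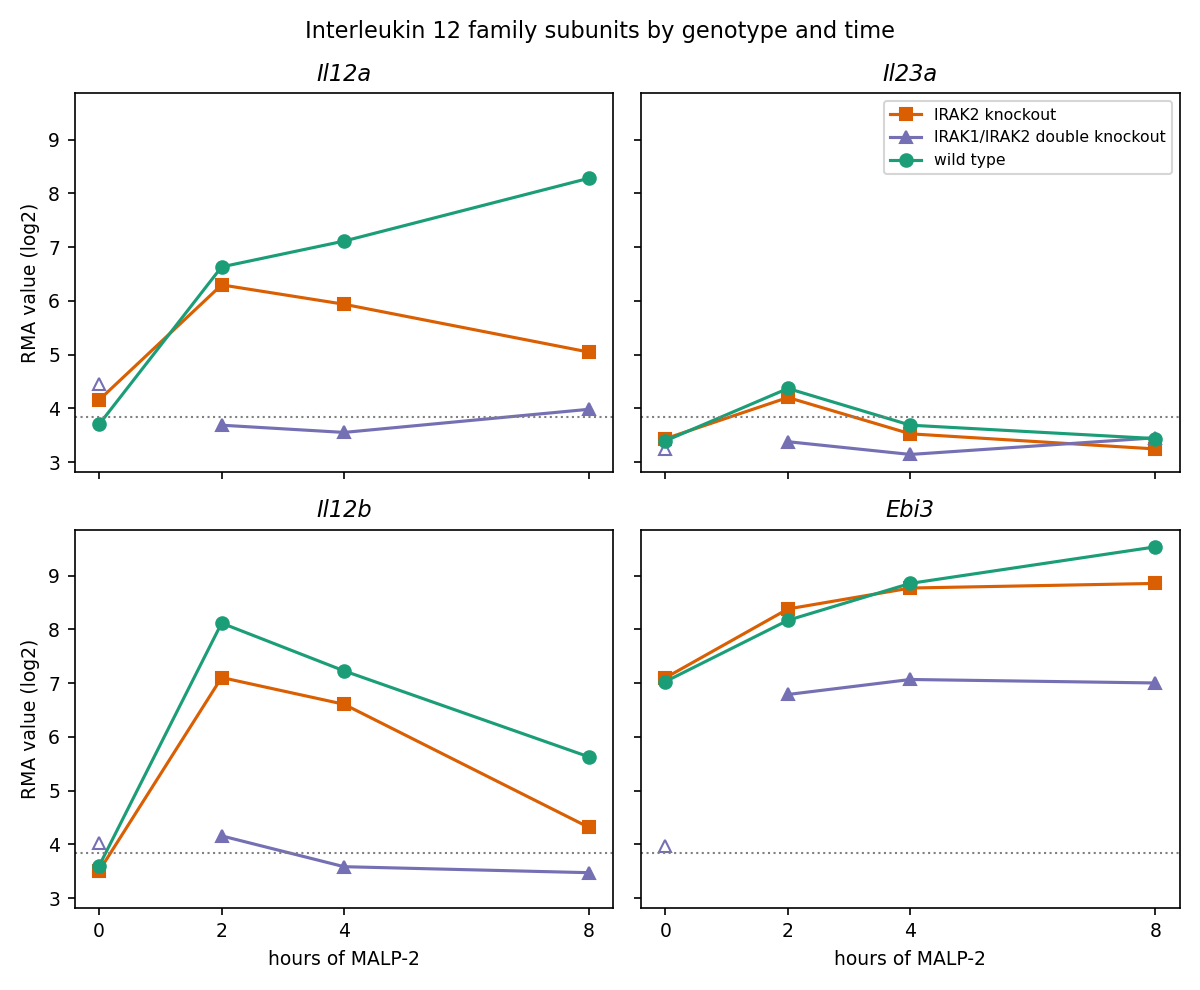
Log2 RMA value (vertical axis) of each measured subunit gene against hours of MALP-2 (horizontal axis), 1 point per array, with lines for IRAK2 KO, double knockout and wild type. The dotted line is the floor of 3.83 and the open triangle is the array labelled double knockout at 0 h, which stood apart. Il12b peaks at 2 h, Il12a of wild type climbs to 8.28 at 8 h, and the stimulated double-knockout arrays lie near the floor for Il12a and Il12b.

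Il12b, the gene of the p40 subunit shared by IL-12 and IL-23, read 3.51, 7.11, 6.61 and 4.32 in IRAK2 KO. It read 4.02, 4.16, 3.59 and 3.47 in the double knockout (the first from the array that stood apart), and 3.60, 8.12, 7.23 and 5.63 in wild type. The 2 responding genotypes shared the 2 h peak, and all 3 stimulated double-knockout values lay below every stimulated value of the others. A further Il12b probeset gave the same order of genotypes at 2, 4 and 8 h over a smaller range, with 4.07, 5.29, 5.12 and 3.93 in IRAK2 KO, 4.18, 3.79, 3.63 and 3.73 in the double knockout, and 3.66, 6.26, 5.76 and 4.30 in wild type. On it the IRAK2 KO value at 8 h lay below that at 0 h, unlike on the main probeset. Over the 11 arrays the 2 probesets correlated at r = 0.97, a description of 2 readings of the same RNA.

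Ebi3, the gene of the beta subunit of IL-27 and IL-35, read 7.10, 8.38, 8.77 and 8.86 in IRAK2 KO. It read 3.97, 6.79, 7.07 and 7.00 in the double knockout, again with that array first, and 7.03, 8.17, 8.86 and 9.54 in wild type. Ebi3 is the subunit gene that lay above the floor on all 11 arrays. The stimulated values of IRAK2 KO and wild type overlapped, while those of the double knockout lay below both.

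Il12a, the gene of the p35 subunit shared by IL-12 and IL-35, read 4.16, 6.30, 5.94 and 5.05 in IRAK2 KO, 4.44, 3.69, 3.55 and 3.98 in the double knockout, and 3.70, 6.63, 7.11 and 8.28 in wild type. The stimulated arrays of the 3 genotypes did not overlap. Wild type was highest, IRAK2 KO lay between, and the double knockout was lowest. Between 2 and 8 h the value moved by -1.25 in IRAK2 KO, 0.30 in the double knockout and 1.65 in wild type, so IRAK2 KO and wild type went in opposite directions.

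Il23a, the gene of the p19 subunit of IL-23, read 3.43, 4.20, 3.52 and 3.24 in IRAK2 KO, 3.24, 3.38, 3.14 and 3.45 in the double knockout, and 3.39, 4.37, 3.69 and 3.44 in wild type. The floor was passed on 2 of 11 arrays, the 2 h arrays of IRAK2 KO and wild type. Its mean over the stimulated arrays lay below the floor, so it entered none of the main tests, and 3 of the 4 measured subunit genes did.

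In the plot of values by hour, these courses can be followed array by array. The response to MALP-2 was tested with limma on the 8 arrays of IRAK2 KO and wild type, where the 2 genotypes are the only repeat of each time. A p-value of this fit weighs the change against how alike the 2 genotypes moved, not against the spread between mice. Il12b rose at every time, by 4.06 log2 at 2 h (SE 0.25, adjusted p = 1.8e-05), by 3.36 at 4 h (adjusted p = 5.15e-05) and by 1.42 at 8 h (adjusted p = 0.00376). With the further probeset the 8 h change was 0.25 (adjusted p = 0.534), so the late Il12b call rests on the probeset used. Ebi3 rose by 1.21, 1.75 and 2.13 log2 (SE 0.20, adjusted p = 0.00171, 3.14e-04 and 1.71e-04). Il12a rose by 2.53, 2.59 and 2.73 log2 (SE 0.70, adjusted p = 0.0191, 0.0195 and 0.0190), the means of 2 courses that separated with time. With a variance trend and robust estimation its adjusted p was 0.144 to 0.149. All 3 tested members were called higher at each time, where 16.2%, 17.3% and 14.7% of 10801 tested genes were called higher at 2, 4 and 8 h. Their median changes were 2.53, 2.59 and 2.13 log2, against -0.12, -0.04 and -0.03 over all genes. With no floor Il23a was tested too and rose by 0.87 at 2 h (adjusted p = 2.71e-04), with 0.19 at 4 h (adjusted p = 0.299) and -0.07 at 8 h (adjusted p = 0.757).

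Each genotype's own response shows what that average covers. Against its own 0 h array, Il12a changed by 2.14, 1.78 and 0.89 log2 in IRAK2 KO, and by 2.93, 3.41 and 4.58 log2 in wild type. At 8 h Il12a was 1.85-fold above 0 h in IRAK2 KO and, with its 0 h value under the floor, at least 21.8-fold above in wild type, each from 2 arrays. Il12b changed by 3.60, 3.10 and 0.81 in IRAK2 KO, and by 4.52, 3.63 and 2.03 in wild type, an early peak in both. The 0 h values of Il12b lay under the floor, against which its 2 h value was at least 9.67-fold higher in IRAK2 KO and at least 19.5-fold higher in wild type. Ebi3 changed by 1.28, 1.67 and 1.76 in IRAK2 KO, and by 1.14, 1.83 and 2.51 in wild type, close to each other until 8 h. At 2 h and 4 h Il12a, Il12b and Ebi3 were at least 2-fold above 0 h in both genotypes, where 4.65% and 4.26% of measured genes were in IRAK2 KO and 5.41% and 5.34% in wild type. At 8 h only Ebi3 was in IRAK2 KO (3.21% of genes), while all 3 were in wild type (5.06% of genes). For the double knockout the mean of the IRAK2 KO and wild-type 0 h arrays served as baseline. Against it, Il12a read -0.24, -0.38 and 0.05, Il12b 0.60, 0.03 and -0.08, and Ebi3 -0.28, 0.003 and -0.06. No subunit gene of the double knockout reached a 2-fold increase over that baseline at any time, where 4.22%, 4.57% and 3.42% of genes did at 2, 4 and 8 h.

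IRAK2 KO was then set against wild type over the 9 stimulated arrays, with genotype and time as additive terms in limma. With 1 array per group, such a p-value asks whether a difference held steady over the 3 times. Il12a differed by -0.33, -1.18 and -3.23 log2 at 2, 4 and 8 h, which is 1.26-fold, 2.26-fold and 9.41-fold lower in IRAK2 KO. The mean difference was -1.58 (SE 0.43, adjusted p = 0.161), and it was -2.21 without the 2 h arrays and -0.76 without the 8 h arrays. Il12b differed by -1.01, -0.62 and -1.31, with a mean of -0.98 (SE 0.38, adjusted p = 0.307). In a fit of these 2 genotypes alone its adjusted p was 0.00956, so the call depends on which arrays share the estimate of spread. Ebi3 differed by 0.21, -0.09 and -0.68, with a mean of -0.19 (SE 0.20, adjusted p = 0.726, 95% interval -0.63 to 0.26), and without the 8 h arrays its mean was 0.06.

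None of the 3 tested members was called lower in IRAK2 KO, where 0.35% of 10854 genes were. An unadjusted p under 0.05 was reached by 2 of 3 members (Il12a and Il12b), and by 1478 of 10854 genes counted in either direction. The members' median difference was -0.98 log2, against 0.02 over all genes. As a description of rank, 12 of the 10854 genes had a mean difference as low as that of Il12a or lower, itself included, while 56 did for Il12b and 1799 for Ebi3. Among the tested members, the stimulated arrays of IRAK2 KO lay below all those of wild type for Il12a and not for Il12b or Ebi3, a pattern seen in 6.08% of genes. At 2 h only Il12b was at least 2-fold lower in IRAK2 KO, where 0.286% of measured genes were. At 4 h only Il12a was (0.528% of genes), and at 8 h both were (1.21% of genes). With no floor, Il23a differed by -0.17 (adjusted p = 0.861). Summed neutrophil markers were 7.17 to 7.61 log2 in IRAK2 KO and 7.62 to 8.16 in wild type, ranges that nearly touch. Among them Csf3r read 5.98 to 6.54 in IRAK2 KO and 6.59 to 7.37 in wild type. Camp and Mmp8 overlapped between these genotypes, and Ngp and Ltf read near or under the floor. Summed B cell markers were 5.99 to 6.20 in IRAK2 KO and 6.23 to 6.61 in wild type, without overlap. Only 2 of the 5 B cell markers with a probeset averaged above the floor, so that sum is largely made of readings near or under it. The part of these markers in the subunit differences was not tested. The bar plot of differences sets these values beside those of the double knockout.

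**Figure D2:**
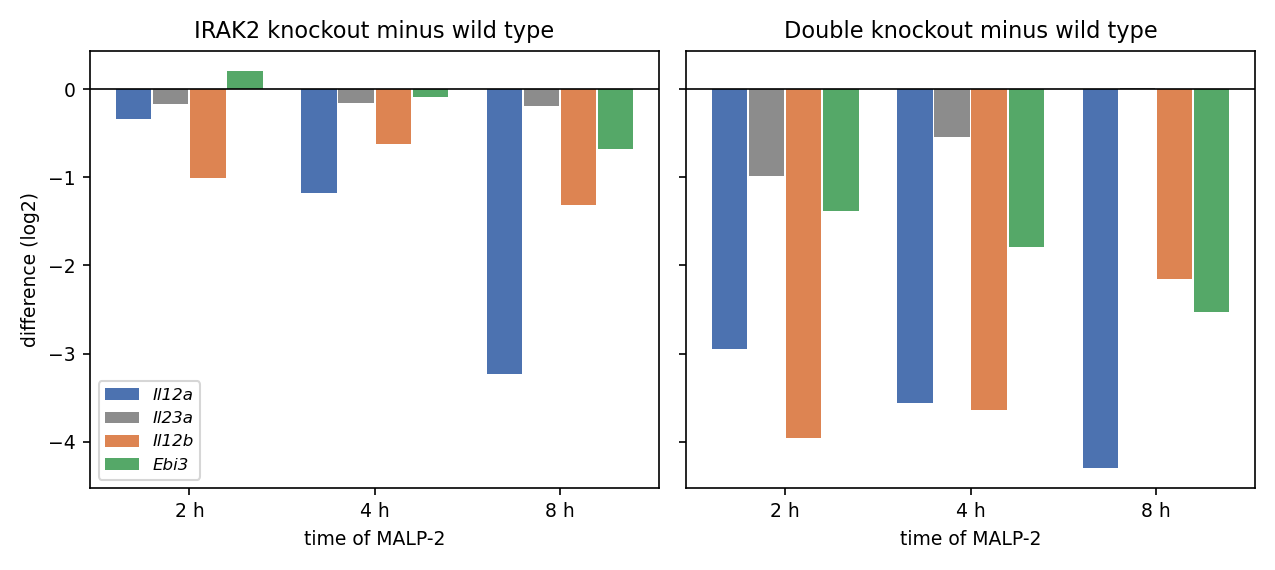
Difference in log2 value (vertical axis) at 2, 4 and 8 h of MALP-2 (horizontal axis) for each subunit gene, IRAK2 KO minus wild type on the left and double knockout minus wild type on the right. Each bar is the difference of 2 arrays, with no error bar because each group has 1 array. On the left the Il12a bar is -0.33 at 2 h and -3.23 at 8 h, while the Ebi3 bars run between 0.21 and -0.68.

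In the double knockout, Il12a, Il12b and Ebi3 were all lower than in wild type. Il12a differed by -2.95, -3.56 and -4.30 log2 at 2, 4 and 8 h, which is 19.7-fold lower at 8 h, with a mean of -3.60 (SE 0.43, adjusted p = 3.97e-04). Il12b differed by -3.96, -3.64 and -2.15, with a mean of -3.25 (SE 0.38, adjusted p = 3.65e-04). Ebi3 differed by -1.38, -1.79 and -2.53, with a mean of -1.90 (SE 0.20, adjusted p = 2.27e-04). The double-knockout values of Il12a at 2 and 4 h and of Il12b at 4 and 8 h lay under the floor, so their differences as read are not exact sizes. Taken against the floor, Il12a was at least 6.95-fold lower at 2 h and at least 9.70-fold lower at 4 h, and Il12b at least 10.5-fold lower at 4 h and at least 3.47-fold lower at 8 h. Ebi3 was above the floor in all of these arrays. On the further Il12b probeset the mean difference was -1.72 (adjusted p = 0.00268).

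All 3 tested members were called lower in the double knockout than in wild type, where 17.3% of 10854 genes were called lower and 41.1% were called in either direction. Their median was -3.25 log2, against 0.07 over all genes. A difference as low or lower was found for 12 genes in the case of Il12a, 23 for Il12b and 105 for Ebi3, as the histograms of all genes show. The stimulated arrays did not overlap for any of the 3, as for 17.5% of genes. Each of the 3 was at least 2-fold lower at every time, against 4.5%, 6.14% and 4.89% of measured genes at 2, 4 and 8 h. With no floor Il23a differed by -0.51 (adjusted p = 0.0736), and 2-fold was not reached at 2 h, where the gap was -0.99.

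The double knockout was also lower than IRAK2 KO, the comparison in which, per the labels, both sides carry the IRAK2 knockout and one carries the IRAK1 knockout as well. Il12a differed by -2.61, -2.38 and -1.06 at 2, 4 and 8 h (mean -2.02, SE 0.43, adjusted p = 0.00638). Without the 4 h arrays its mean was -1.84 with an adjusted p of 0.0682, so that call was lost without 4 h, and it was kept without 2 h (adjusted p = 0.0271) and without 8 h (adjusted p = 6.12e-04). Il12b differed by -2.95, -3.02 and -0.84 (mean -2.27, SE 0.38, adjusted p = 0.00206, and -2.98 without the 8 h arrays), and by -1.06 on average on the further probeset (adjusted p = 0.0251). Ebi3 differed by -1.59, -1.70 and -1.85 (mean -1.71, SE 0.20, adjusted p = 4.27e-04). All 3 tested members were called lower, where 16.7% of genes were, and all 3 had non-overlapping arrays, where 16.9% of genes did. All 3 were at least 2-fold lower at 2 h and 4 h, against 4.78% and 6.19% of measured genes, and at 8 h Il12a and Ebi3 were, against 3.4%. Raised to the floor, the differences under it were -2.46 and -2.10 for Il12a at 2 and 4 h and -2.78 and -0.48 for Il12b at 4 and 8 h. For Il12a and Il12b the gap was smallest at 8 h, when the IRAK2 KO values had themselves come down, while the Ebi3 gap was of similar size throughout. This comparison shares its arrays with the others, as both knockouts share the wild-type arrays, so the sets of values are not independent of each other.

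The double-knockout arrays differ from the rest in more than these genes. The summed level of the 6 dendritic cell markers was 10.75 to 10.95 log2 in IRAK2 KO, 11.92 to 12.23 in the double knockout and 10.69 to 11.09 in wild type. Itgax, an integrin that macrophages also carry, made most of that sum, at 11.85 to 12.20 in the double knockout and 10.62 to 11.03 in the other 8 arrays. Zbtb46, the other of these markers above the floor on average, was also highest in the double knockout at each stimulated time. At 2, 4 and 8 h it read 6.26, 5.46 and 5.56 in IRAK2 KO, 7.14, 6.61 and 6.15 in the double knockout, and 6.77, 5.51 and 5.25 in wild type. The summed levels of 5 neutrophil markers were 6.92 to 7.01 in the double knockout, below both other genotypes. Among them Csf3r read 5.20 to 5.61 in the double knockout, against 5.98 to 7.37 in the other 8 arrays. Camp and Mmp8 overlapped with the other 8 arrays, and Ngp and Ltf of the double knockout read under the floor. The summed levels of 5 mast cell markers were 6.11 to 6.28 in IRAK2 KO, 6.41 to 6.85 in the double knockout and 5.91 to 6.32 in wild type. Cpa3 read 4.90 to 5.85 and Kit 3.68 to 4.34 in the double knockout, against up to 4.91 and 3.43 in the other 8 arrays. The lowest of these Cpa3 values lay within the range of the other 8, and the lowest Kit value lay under the floor. Cma1 (3.93 to 4.33) and Tpsb2 (3.67 to 4.13) of the double knockout overlapped with the other 8 (3.74 to 4.20 and 3.57 to 4.02). Mcpt4 stayed under the floor on all 11 arrays. Apart from Cpa3, the mast cell readings thus lay near or under the floor. Summed B cell markers of the double knockout lay below every wild-type array. Its summed T and NK cell markers overlapped with wild type, at 5.61 to 5.91 in the double knockout and 5.54 to 5.68 in wild type. Of the markers with a probeset, 2 of 5 for B cells and 1 of 4 for T and NK cells averaged above the floor. Both sums are thus largely made of readings near or under the floor. The summed levels of the 7 macrophage markers overlapped, at 14.42 to 14.59 in IRAK2 KO, 14.39 to 14.43 in the double knockout and 14.38 to 14.50 in wild type. The summed dendritic cell, neutrophil and mast cell markers and the larger 5′ to 3′ deficit moved with the double knockout. The part of any of these markers, or of the deficit, in the lower subunit values was not tested.

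**Figure D3:**
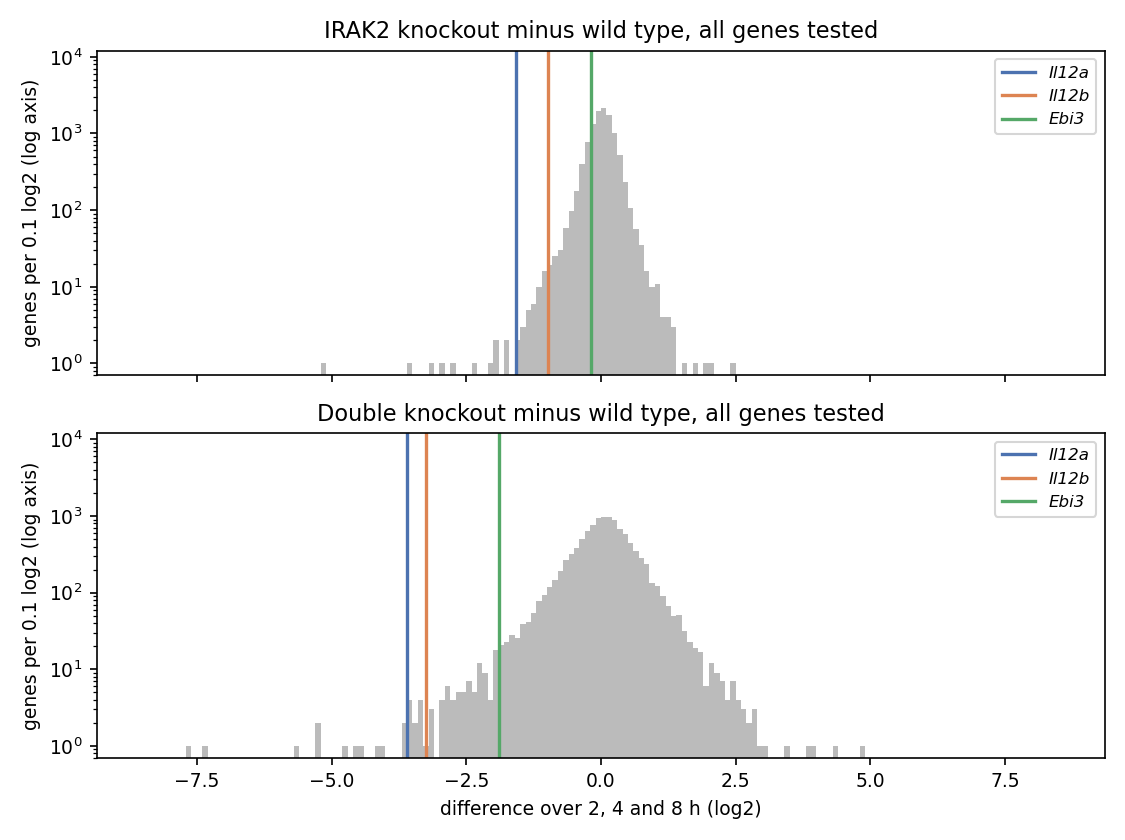
Histograms of the mean difference over the stimulated times (horizontal axis, log2) of all 10854 tested genes, with the number of genes on a log axis and a vertical line for each of the 3 tested subunit genes. The upper panel is IRAK2 KO minus wild type and the lower panel double knockout minus wild type. Il12a lies at -3.60 and Il12b at -3.25 in the double knockout against wild type, and Il12a at -1.58 in IRAK2 KO against wild type.

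Whether a gap between genotypes widened or narrowed with time was tested with slopes on log2 time, which left 2 residual degrees of freedom. The slope of Il12a differed by -1.45 log2 per doubling of time between IRAK2 KO and wild type (SE 0.19, unadjusted p = 1.5e-04 in limma). Its adjusted p was 0.544 over all genes, and 0.0269 in the fit of these 2 genotypes alone. Only 5 of 10854 genes had a slope difference as low or lower, that of Il12a included. Ebi3 had -0.45 (adjusted p = 0.961) and Il12b -0.15 (adjusted p = 0.995), and the Il12b value was 0.30 on the further probeset. In the double knockout against wild type the slope differences were -0.68 for Il12a (adjusted p = 0.207), -0.58 for Ebi3 (adjusted p = 0.142) and 0.90 for Il12b (adjusted p = 0.232). Il12b had the opposite sign, and its wild-type value came down after 2 h. The double-knockout values of Il12a at 2 and 4 h and of Il12b at 4 and 8 h lay under the floor. The slope differences of Il12a and Il12b from wild type there are thus not exact sizes and mostly follow the wild-type course. No member was called in these slope contrasts, where 0.00921% of genes were called in IRAK2 KO against wild type and 0.138% in the double knockout against wild type. At an unadjusted p under 0.05 the counts were 2 and 3 of 3 members, with 537 and 1625 of all genes.

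Subunits that join into one cytokine were compared within each array, as the log2 value of the alpha subunit minus that of its beta partner. Because 2 probesets bind their targets with different strength, such a value says nothing about which subunit is more abundant, and only its change between arrays can be read. Of 4 cytokines 3 could be measured, IL-27 lacking its alpha subunit here. For IL-12 (Il12a minus Il12b) the values at 2, 4 and 8 h were -0.81, -0.67 and 0.73 in IRAK2 KO, -0.47, -0.04 and 0.51 in the double knockout, and -1.49, -0.12 and 2.65 in wild type. The IL-12 value was higher at 8 h than at 2 h in IRAK2 KO and, by more, in wild type. In the double knockout each of its 3 values has a partner under the floor, so its course there cannot be read. For IL-35 (Il12a minus Ebi3) they were -2.09, -2.84 and -3.81 in IRAK2 KO, -3.11, -3.52 and -3.02 in the double knockout, and -1.54, -1.75 and -1.26 in wild type. Every value of both knockouts lay below every wild-type value, as the Il12a differences were larger than those of Ebi3. The double-knockout values at 2 and 4 h rest on Il12a readings under the floor. For IL-23 (Il23a minus Il12b) they were -2.91, -3.08 and -1.07 in IRAK2 KO, -0.78, -0.45 and -0.02 in the double knockout, and -3.75, -3.54 and -2.19 in wild type. With Il23a near the floor on every array, this contrast mostly mirrors Il12b. The plot of partner subunits shows all 3 contrasts by time.

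Differences between genotypes in these pair contrasts were tested by exact permutation of the labels within each time, two-sided, in 9 tests. With 3 times the smallest p this can give is 0.25, so none can pass 0.05. The IL-35 contrast differed by -1.40 ± 1.04 log2 (SD, n = 3 times) between IRAK2 KO and wild type, and by -1.70 ± 0.12 between the double knockout and wild type, the second from Il12a readings at or near the floor and so not an exact size. Both had an exact p of 0.25 and 0.45 after Benjamini-Hochberg adjustment. The IL-23 contrast differed by 0.81 ± 0.33 in IRAK2 KO and 2.75 ± 0.50 in the double knockout against wild type, with the same exact p of 0.25. The IL-12 contrast differed by -0.60 ± 1.30 in IRAK2 KO (exact p = 0.75) and -0.35 ± 1.62 in the double knockout (exact p = 1, with partners under the floor), and its sign changed between 2 and 8 h in both. At 8 h alone the IL-12 contrast differed by -1.92 between IRAK2 KO and wild type and by -2.14 between the double knockout and wild type.

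**Figure D4:**
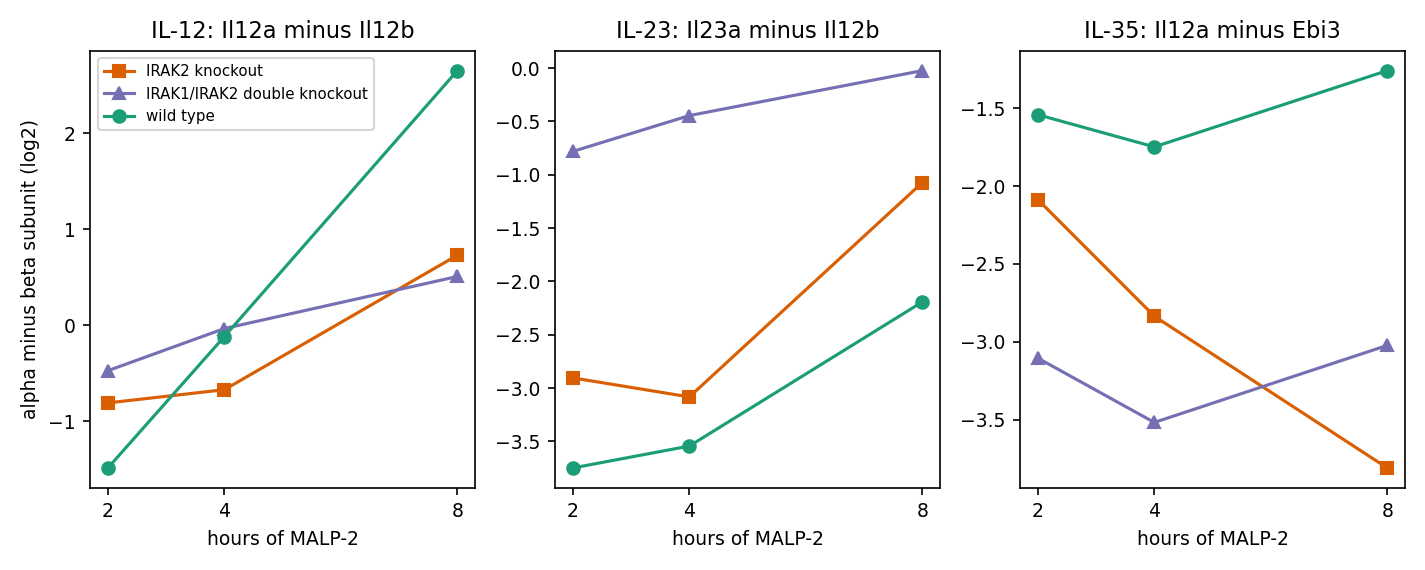
Log2 value of the alpha subunit minus that of the beta subunit within each array (vertical axis, with its own scale in each panel) at 2, 4 and 8 h (horizontal axis) for IL-12, IL-23 and IL-35, 1 point per array. In the IL-35 panel all knockout points lie below the wild-type points, and in the IL-12 panel wild type reaches 2.65 at 8 h.

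Across the 11 arrays, partners correlated to differing degrees: r was 0.80 for Il12a with Il12b, 0.82 for Il23a with Il12b and 0.90 for Il12a with Ebi3. Among pairs that form no cytokine listed here, r was 0.66 for Il12b with Ebi3, 0.51 for Il12a with Il23a and 0.27 for Il23a with Ebi3. By rank (Spearman) the 2 sets overlapped. The partners had 0.75 for Il12a with Il12b, 0.67 for Il23a with Il12b and 0.85 for Il12a with Ebi3. The other pairs had 0.63 for Il12b with Ebi3, 0.72 for Il12a with Il23a and 0.33 for Il23a with Ebi3. Il23a passed the floor on 2 of the 11 arrays, so its correlations are mostly with readings under the floor. These values describe points that share genotypes, times and arrays. The genes most like each member over the same 11 arrays were then taken from the genes above the floor that varied by at least 1 log2, 5120 for Il12a, Il12b and Ebi3 and 5121 for Il23a. For Il12a they were Gpr18 (r = 0.97, a G-protein coupled receptor), U90926 (0.97), Ccl7 (0.97, a monocyte chemokine), Ier3 (0.96, an early-response gene) and Mecr (0.96). For Il12b they were Tmem243 (0.98), Myc (0.98), Pygo2 (0.97), Sde2 (0.96) and Kdm6b (0.96, a histone H3 lysine demethylase). For Il23a they were Itprip (0.97), Myo1g (0.97), Errfi1 (0.96), Lrig2 (0.96) and Zyx (0.95), all with their highest value at 2 h in IRAK2 KO and wild type. As only those 2 arrays read Il23a above the floor, these r values mostly reflect a high reading on them. For Ebi3 they were Acp5 (0.98), Lcn2 (0.98, an iron-siderophore binding protein), Siglece (0.97), Acot7 (0.97) and Marco (0.97, a scavenger receptor).

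Receptors of the family were listed too. Of 5 genes, 4 have a probeset, and Il12rb1 and Il12rb2, which bind p40 and p35, lay under the floor on average. Il27ra, the IL-27 receptor chain, read 5.41, 4.93, 5.52 and 5.71 in IRAK2 KO and 5.63, 5.64, 6.10 and 6.36 in wild type. In the double knockout it read 4.83 (from the array that stood apart), 6.46, 7.21 and 7.31. It was lower in IRAK2 KO (-0.65, SE 0.11, adjusted p = 0.0435) and higher in the double knockout (0.96, SE 0.11, adjusted p = 3.33e-04), so the knockouts stood on opposite sides of wild type. The IRAK2 KO call was lost when any of the 3 times was left out (adjusted p = 0.185 to 0.490), while the double-knockout call was kept. Il6st, the gp130 chain shared with IL-27, passed neither test (-0.12 in IRAK2 KO and 0.11 in the double knockout). Of 6 JAK and STAT genes that these receptors use, 5 were tested. None was called in IRAK2 KO against wild type, with 1 (Jak2) at an unadjusted limma p under 0.05. In the double knockout 2 were lower than in wild type, where 17.3% of all tested genes were called lower. They were Jak2 (-1.24, adjusted p = 4.62e-04) and Stat4 (-0.48, adjusted p = 0.0240, and 0.138 without 2 h). Stat4 read 3.59, 3.56 and 3.65 on the stimulated double-knockout arrays, under the floor, so its difference is not an exact size. Of 5 products of responding lymphocytes, 3 have a probeset, and their highest reading over the 11 arrays was 4.18 (Il17a), near the floor.

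Of 11 known activators of the subunit genes, 10 were tested. None of them passed in IRAK2 KO against wild type, and the lowest were Nfkbiz, an atypical IkB protein that works with NF-kB on the Il12b gene, at -0.90 (adjusted p = 0.168), and Runx1 at -0.60 (adjusted p = 0.145), which are the 2 with an unadjusted limma p under 0.05. In the double knockout 7 of 10 were lower and 1 higher than in wild type, with a median of -0.68 log2 against 0.07 over all genes, of which 17.3% were called lower and 23.7% higher. Nfkbiz read 7.22, 11.69, 10.19 and 9.73 in IRAK2 KO and 7.38, 11.85, 11.39 and 11.08 in wild type. In the double knockout it read 5.75 (from the array that stood apart), 9.99, 8.93 and 7.84. Its mean difference between double knockout and wild type was -2.52 (SE 0.25, adjusted p = 1.86e-04). Rel, which encodes c-Rel, read 4.14, 7.39, 6.05 and 4.78 in IRAK2 KO and 4.37, 7.26, 6.40 and 5.40 in wild type. In the double knockout it read 4.52 (from that same array), 5.24, 4.50 and 4.20. Its mean difference between double knockout and wild type was -1.71 (SE 0.24, adjusted p = 9.36e-04). Like Il12b, Rel read highest at 2 h among the stimulated arrays of every genotype, and its 2 h value was 7.39 in IRAK2 KO and 7.26 in wild type. The others lower in the double knockout were Runx1 (-1.20), Cebpb (-1.07), Spi1 (-0.78), Irf5 (-0.57) and Rela (-0.52), and Irf8, an interferon regulatory factor, was higher (0.48). Of 5 repressors 4 were tested: none was called in IRAK2 KO, where 0 had an unadjusted limma p under 0.05, while Nfil3 (-1.13) and Maf (-0.75) were lower and Atf3 (0.82) higher in the double knockout than in wild type. Of the activators and repressors called in the double knockout against wild type, Nfkbiz, Rel, Runx1, Cebpb and Atf3 stayed past the threshold when any time was left out. Spi1, Irf5, Rela and Nfil3 did not without 2 h or without 4 h (highest adjusted p = 0.142, 0.246, 0.234 and 0.0761), nor did Irf8 without 2 h (0.0877) and Maf without 4 h (0.108). The plot of activators and repressors gives the tested genes with their intervals.

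**Figure D5:**
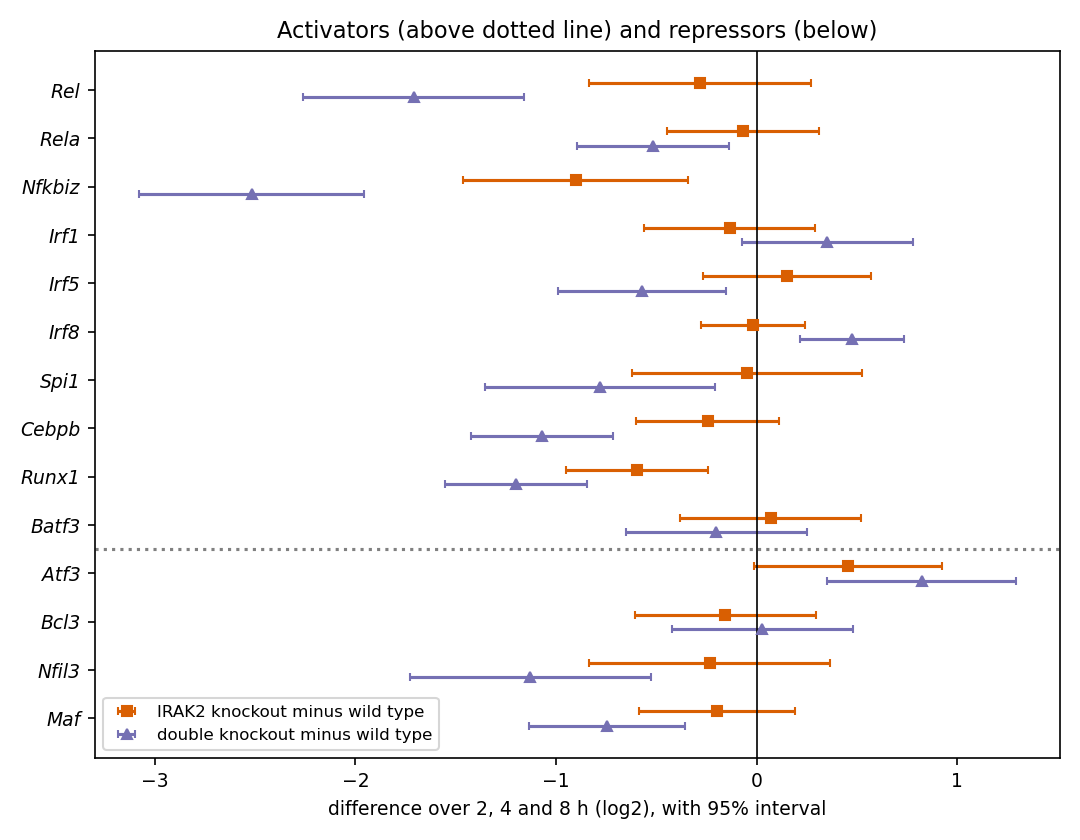
Mean difference over the stimulated times (log2) for the tested activators and repressors of the subunit genes, in IRAK2 KO and in the double knockout against wild type, with the 95% interval of the limma fit. In the double knockout Nfkbiz lies at -2.52 and Rel at -1.71, and Irf8 and Atf3 lie above 0.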

How the data were processed

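Log2 values of 45101 probesets on 12 arrays were deposited, made by the authors with RMA per the submitters' processing notes (background correction, quantile normalization, probe summary). The sources used here do not name its version. RMA makes array distributions equal, so a change common to most genes would not be seen, and low values are compressed towards the floor. RNA was taken with Trizol and labelled with the NuGEN Ovation system per the labels' protocols. Arrays give no read depth, so their number limits the precision.

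Gene symbols came from the platform annotation, updated through gene identifiers for 34754 probesets. Of all probesets, 34958 carried 1 symbol, 932 several and 9211 none. A gene was read from the probeset with the highest mean over the 11 arrays other than the one labelled double knockout at 0 h. Genes with a mean under the floor of 3.83 were not tested in the main fits. limma 3.58.1 in R 4.3.3 was used with Benjamini-Hochberg adjustment over all genes tested, and 0.05 was the threshold. The genotype fit left 4 residual degrees of freedom (prior 4.73), the slope fit 2 and the response fit 3. Each pair of partner subunits was tested by exact permutation in Python 3.11.15 with scipy 1.17.1. Of 12 planned tests, 9 could be run.

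The named genes were the members, the 5 genes most correlated with each and the listed receptors, JAK and STAT genes, activators, repressors and lymphocyte products. The members, lists and motifs were chosen with earlier results of these data known. The fits were run on simulated data with independent noise and set effects on genes well above the floor. Those simulations did not cover readings near the floor or differences in array quality. Alternatives were other floors, median centring, other probesets, a variance trend, other sets of arrays and leaving out each time. The further Il12b probeset was added as an alternative after its values were seen.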

Additional observations from a re-analysis of the deposited data

How the results depend on the processing

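The limits are those of 1 array per genotype and time, and nothing separates mice from conditions. A p-value of the genotype fit weighs constancy over times. That of the response fit weighs how alike IRAK2 KO and wild type moved. Double-knockout readings of Il12a and Il12b near or under the floor give no exact size of their differences. Of 529 alternative values, 477 kept their direction and side of the threshold or stayed within the set margin.

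With all 12 arrays, the array labelled double knockout at 0 h included, the differences from wild type were -2.52 for Il12a (adjusted p = 0.0726) and -2.33 for Il12b (adjusted p = 0.0636), and those from IRAK2 KO were -1.44 (adjusted p = 0.273) and -1.57 (adjusted p = 0.184). In both of those contrasts 1 member, Ebi3, was then called in place of 3. Leaving out each time in turn, Il12a in double knockout minus IRAK2 KO ranged from -2.50 to -1.72, and without 4 h it was -1.84 (adjusted p = 0.0682). Ebi3 in IRAK2 KO minus wild type ranged from -0.38 to 0.062, turning positive without 8 h. With only the 2 genotypes compared, Il12b in IRAK2 KO minus wild type stayed at -0.98 with an adjusted p of 0.00956, so 1 member was called in place of 0, and 1 member, Il12a, was called by slope. The Il12b slope difference of that contrast was 0.074 with the mean of its probesets and 0.30 with the further probeset, against -0.15 with the main one. The IL-12 pair contrast of double knockout minus IRAK2 KO was -0.35 with the mean of probesets, against 0.25 with the main probesets. The cause of these changes was not tested, except that fewer or other arrays entered the fits named.

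Counts of all genes called moved too. For IRAK2 KO minus wild type, 83 became 44 without _x_at and _s_at probesets, 553 with the 2 genotypes, 143 with 11 arrays, 6 with 12 arrays and 6 to 14 when a time was left out. For double knockout minus IRAK2 KO, 4214 became 1005 with 12 arrays and 1572 to 3997 when a time was left out, lowest without 4 h. For double knockout minus wild type, 4458 became 1161 with 12 arrays and 2111 to 4048 when a time was left out, lowest without 4 h. For slopes, IRAK2 KO minus wild type had 1 call, and 31 with the 2 genotypes. Double knockout minus IRAK2 KO had 1 call, with 8 under a variance trend and 0 with the 2 genotypes. Double knockout minus wild type had 15 calls, with 41 without a floor, 34 with a higher floor, 7 with mean probesets, 159 under a variance trend and 42 with the 2 genotypes. For all stimulated times together against 0 h, 5077 became 2217 when they were fitted as 1 group.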

Other observations

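The array labelled double knockout at 0 h, which stood apart, read Ebi3 at 3.97, the lowest Ebi3 value of the 12 arrays, while IRAK2 KO and wild type at 0 h read 7.10 and 7.03. Against that array the double-knockout responses of Ebi3 would be 2.82, 3.10 and 3.03 log2 at 2, 4 and 8 h, in place of -0.28, 0.003 and -0.06 against the mean of the other 0 h arrays. For Il12a the same change of baseline gives -0.76, -0.89 and -0.46. Which baseline applies to the double knockout was not tested.

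Tyk2, a kinase of the IL-12 and IL-23 receptors, was higher in the double knockout than in IRAK2 KO by 0.44 log2 (adjusted p = 0.0268 in limma, and up to 0.292 without 4 h or 8 h), while Jak2, its partner at those receptors, was lower by 0.80 (difference -0.80, adjusted p = 0.00375). Irf8, an activator of Il12b, fell after MALP-2 by 2.65 log2 at 2 h in the limma fit of IRAK2 KO and wild type (adjusted p = 2.99e-06), while Il12b rose.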
